A study of Mus musculus with 39 samples.

Results

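Kit, Dmrt1, Sohlh1, Sohlh2, Stra8, Meioc, Ythdc2 and Crabp1 are 8 genes that mouse male germ cells use to leave the spermatogonial state and enter meiosis. They were taken by symbol from the gene list of the single-cell data, where each of the 8 matched 1 of 32285 genes. Their transcripts were counted as UMIs (unique molecular identifiers, 1 per captured RNA molecule) in droplet 3′ RNA-seq of dissociated whole testis, in barcodes holding at least 3000 UMIs. The control library came from Kdm6a fl/y males without Cre and the conditional knockout (cKO) library from Kdm6a fl/y males with Ddx4-Cre. All males therefore carried the floxed allele of this X-linked gene, which encodes the histone H3 lysine 27 demethylase UTX. Ddx4 drives Cre in germ cells, so the Leydig, Sertoli and other somatic cells of the cKO testis keep the unrecombined allele. The labels used here give no age, no strain background and no number of animals per library. Sorted cKIT+ spermatogonia of the same genotypes were profiled by ATAC-seq for open chromatin and by CUT&Tag for H3K27me3, each in 2 control and 3 cKO libraries, with 1 control IgG library. Only 1 single-cell library stands for each genotype, so no test between genotypes was possible. Levels are given as CPM, the UMIs of a gene per 1000000 UMIs of the same cells, and intervals are 95% intervals for counting error alone.

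In the adult testis a pulse of retinoic acid moves undifferentiated spermatogonia into differentiation, and a later pulse moves preleptotene spermatocytes into meiosis. KIT is the receptor tyrosine kinase gained by differentiating spermatogonia. DMRT1 is a transcription factor that holds spermatogonia in mitosis and restrains Stra8. SOHLH1 and SOHLH2 are germ-cell basic helix-loop-helix factors that act in differentiation, partly by raising Kit. CRABP1 binds retinoic acid in the cytoplasm. STRA8 is induced by retinoic acid and, with its partner MEIOSIN, switches on meiotic genes. MEIOC and the RNA helicase YTHDC2 form an RNA-binding complex that lets cells complete the switch from mitosis to meiotic prophase.

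The control library held 229882646 UMIs and the cKO library 172368722, of which 57.8% and 57.5% lay in 11252 and 8520 barcodes of at least 3000 UMIs. Median depths were 8410 and 8499 UMIs, and 30 of these barcode sequences occurred in both libraries. Cells were gated by the summed UMIs of marker lists that hold none of the 8 genes. The gates held 263 control and 219 cKO spermatogonia-like cells, 291 and 58 preleptotene-like cells, and 420 and 294 leptotene-zygotene-like cells. The preleptotene-like name rests on early meiotic genes and not on DNA replication. The median summed level of a DNA replication list per 10000 UMIs was 5.73 and 6.91 in that gate. It was 8.06 and 8.94 in spermatogonia-like and 3.5 and 3.66 in leptotene-zygotene-like cells. A gate is a range on a marker level, not a type: 4.94% of control and 3.65% of cKO spermatogonia-like cells lay within 20% above the spermatogonial cut. Of the leptotene-zygotene-like cells, 12.4% and 11.6% lay as near to the cut between the early meiotic and pachytene lists, and of the preleptotene-like cells 2.75% and 5.17% to the early meiotic cut. Of the 6 peritubular and endothelial markers, 12 UMIs lay in 12 control spermatogonia-like cells and 131 in 6 cKO ones, 119 of them in 1 cKO cell. Without the cells holding 2 or more such UMIs, 2 in cKO and none in control, the log2 ratios of the 8 genes in this gate were between -0.81 for Meioc and 0.36 for Sohlh1. Doublets called by scrublet were 5.25% and 6.01% of barcodes, with 9 and 4 in the spermatogonia-like gate. They were kept. Kdm6a itself had 36 UMIs in control and 8 in cKO spermatogonia-like cells, 99 and 4 in preleptotene-like cells, and 23 and 2 in leptotene-zygotene-like cells. In cells without the Cre driver the values went either way, with 16 and 21 Kdm6a UMIs in Sertoli-like cells (log2 0.58, interval -0.43 to 1.61) and 13 and 7 in Leydig-like cells (log2 -0.56, interval -2.12 to 0.87). Kdm6a was thus lower in the 3 cKO germ-cell gates, in the direction the labels give, and in both somatic gates the interval includes 0. These somatic gates also hold RNA of other cells. By the elongating-spermatid list, the share of free RNA (from barcodes with under 100 UMIs) was estimated at 82.7% and 101% in Sertoli-like cells. It was 46.0% and 38.6% in Leydig-like cells. The labels do not say which exons recombine, and 3′ reads need not fall in them.

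The RefSeq table (GRCm38.p6) gave a start site for 6 of the 8 genes, and 4 of these promoters are shown for the matches described under them; Kit and Meioc, with 1 GC box each, are not. At Stra8 and Sohlh1 the ATAC peaks given further on are also read against these letters. Each run is the 250 bases before the start site, 5′ to 3′ on the gene's strand. Capitals mark every match, on either strand, to AGGTCA (the core letters of a retinoic acid receptor site), CNCCTCAG (the site read by STRA8-MEIOSIN), CACGTG (an E-box, the kind of site that basic helix-loop-helix factors read), GGGCGG (a GC box) and TATAAA.
Stra8, chr6:34920698-34920947, plus strand: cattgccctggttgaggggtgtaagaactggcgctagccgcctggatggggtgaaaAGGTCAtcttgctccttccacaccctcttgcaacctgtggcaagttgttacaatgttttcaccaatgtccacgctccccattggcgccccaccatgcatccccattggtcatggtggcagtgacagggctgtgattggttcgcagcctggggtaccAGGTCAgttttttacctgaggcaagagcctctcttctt
Sohlh1, chr2:25847249-25847498, minus strand: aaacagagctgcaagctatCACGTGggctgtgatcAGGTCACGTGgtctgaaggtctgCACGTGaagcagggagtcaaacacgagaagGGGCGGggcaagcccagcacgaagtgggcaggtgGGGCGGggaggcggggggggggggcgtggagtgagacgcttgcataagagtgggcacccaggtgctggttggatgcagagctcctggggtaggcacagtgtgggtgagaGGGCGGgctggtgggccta
Sohlh2, chr3:55181794-55182043, plus strand: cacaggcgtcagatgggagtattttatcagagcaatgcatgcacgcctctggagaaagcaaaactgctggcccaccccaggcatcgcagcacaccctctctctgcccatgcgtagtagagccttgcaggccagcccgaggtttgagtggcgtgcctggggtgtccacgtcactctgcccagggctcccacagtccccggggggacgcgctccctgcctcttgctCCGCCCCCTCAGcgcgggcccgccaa
Crabp1, chr9:54764498-54764747, plus strand: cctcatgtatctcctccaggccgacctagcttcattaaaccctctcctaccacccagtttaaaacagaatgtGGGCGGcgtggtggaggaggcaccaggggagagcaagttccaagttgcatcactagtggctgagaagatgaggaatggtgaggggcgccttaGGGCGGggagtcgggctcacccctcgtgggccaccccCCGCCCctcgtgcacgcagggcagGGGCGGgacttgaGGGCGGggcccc
Positions are counted from the start site at 0, so that the last base of each run is at -1. The Stra8 promoter held 2 copies of AGGTCA, starting at -194 and -38. Of 32851 promoters of the same length, 14% held at least 1 copy and 1.36% held at least 2. The Sohlh1 promoter held 3 copies of CACGTG, starting at -231, -211 and -192, and the middle one overlaps an AGGTCA by 2 bases. At least 1 CACGTG was in 6.02% of promoters, and at least 3 were in 0.0609%. Sohlh2 was the only one of the 6 with CNCCTCAG, which overlaps a GC box by 2 bases and was in 6.42% of promoters. Crabp1 held 5 GC boxes, against at least 1 in 32.7% of promoters and at least 3 in 8.47%. None of the 6 held TATAAA, which was in 12.4% of promoters. The Stra8 window had 5 CpG pairs, below the median of 6 over all promoters, and the Meioc window had 22, at percentile 85.2 of all promoters. These matches describe letters and not bound sites.

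The 8 genes peaked in the same gates in both libraries. Kit, Dmrt1, Sohlh1 and Crabp1 were highest among germ cells in spermatogonia-like cells, Stra8, Meioc and Ythdc2 were highest in preleptotene-like cells, and Sohlh2 was highest in leptotene-zygotene-like cells. Free RNA was read from barcodes with under 100 UMIs. It set the level below which a value was not read as expression: between 1.5 and 5.54 CPM for 6 of the genes, about 11.1 for Ythdc2 and about 39 for Meioc. This cut is strict, because free RNA makes up only a share of a gate's UMIs. By the elongating-spermatid list that share was estimated at 28.1% and 22.7% in spermatogonia-like cells and 14.2% and 14.9% in early pachytene-like cells. A value below the cut is left unread and is not shown to be free RNA alone.

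**Figure D1:**
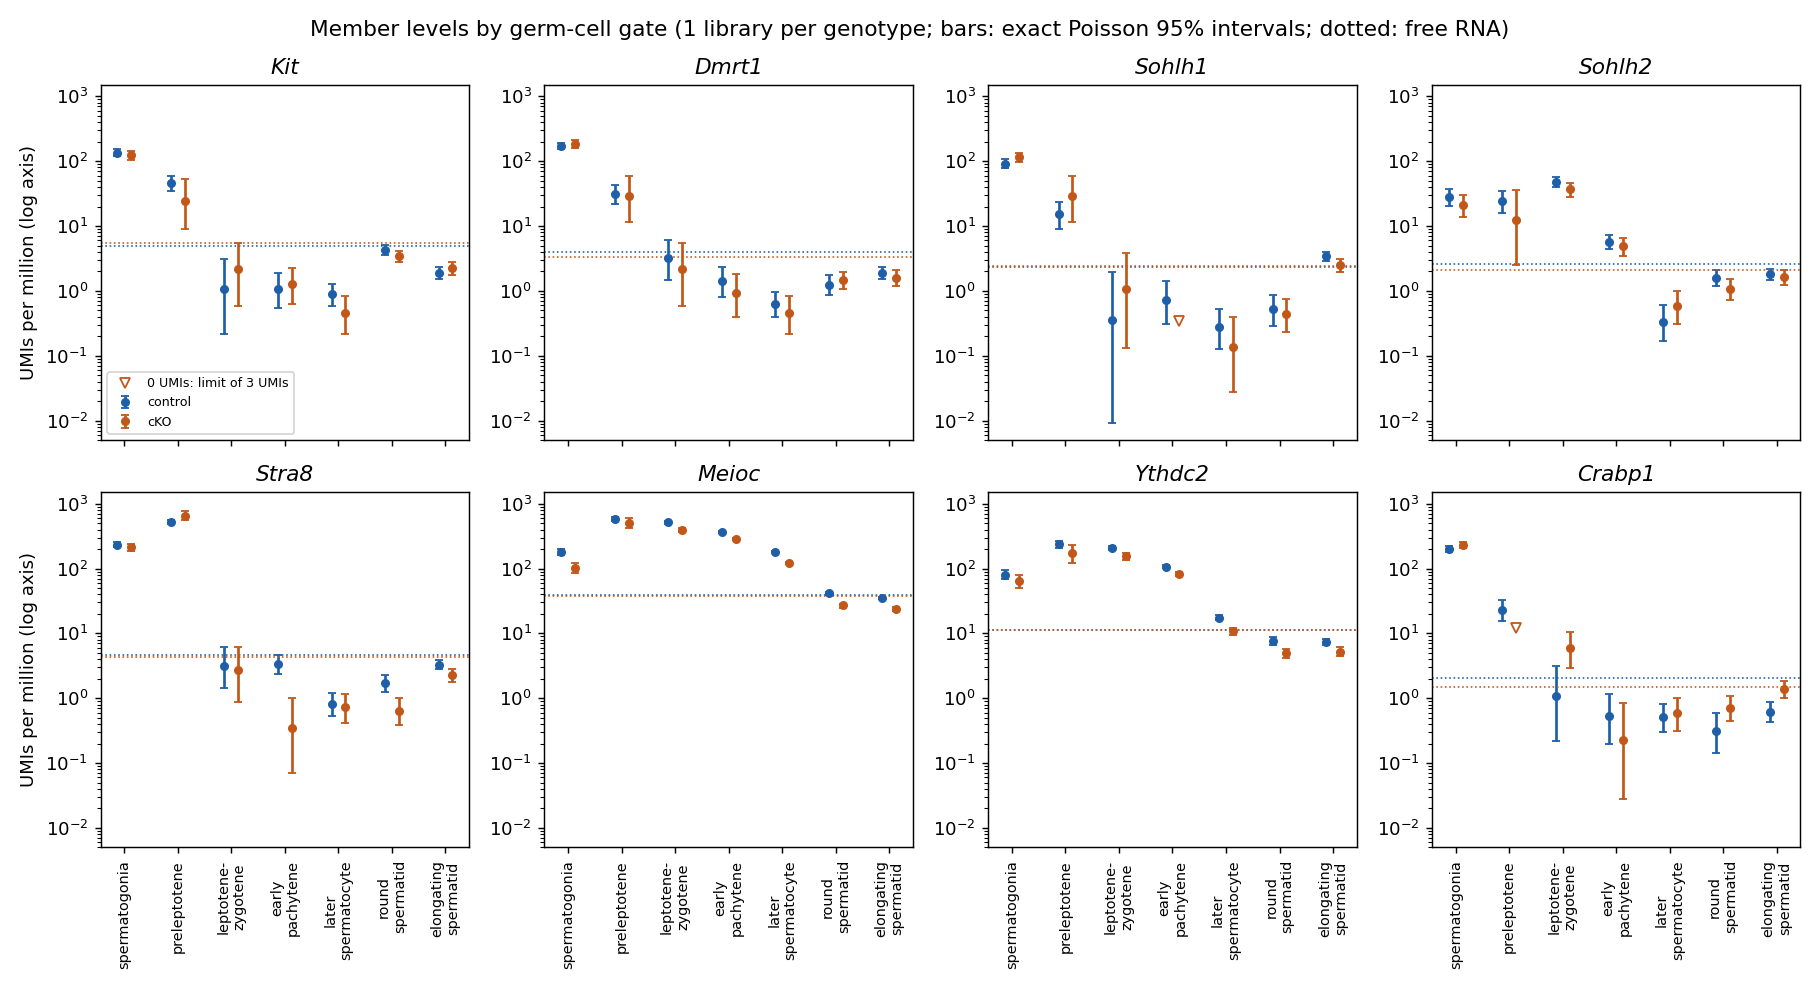
Level of each of the 8 genes (CPM, log axis) in 7 germ-cell gates, with 1 point per library (control blue, cKO orange), exact Poisson 95% intervals for counting error and dotted lines for the level in free RNA; an open triangle marks 0 UMIs at the limit of 3 UMIs. Kit, Dmrt1, Sohlh1 and Crabp1 are highest in the spermatogonia-like gate, Stra8 peaks in the preleptotene-like gate, and Meioc and Ythdc2 stay high into pachytene.

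Among the differentiation genes, Kit had 245 UMIs in control and 165 in cKO spermatogonia-like cells, 136 and 124 CPM. In preleptotene-like cells it had 57 and 6 UMIs, 45.3 and 24.6 CPM, and in leptotene-zygotene-like cells 3 and 4 UMIs, below the free RNA. The control level was 3.0-fold lower in preleptotene-like than in spermatogonia-like cells (log2 -1.58, interval -2.03 to -1.16), and the cKO level 5.04-fold lower (log2 -2.33, interval -3.80 to -1.18). Kit was also high in Leydig-like cells, steroid-producing cells that are known to carry this receptor, with 302 and 193 CPM. That is a difference of -0.65 on the log2 scale (interval -0.95 to -0.35) in cells without the Cre driver, larger than the -0.13 (interval -0.43 to 0.16) in spermatogonia-like cells.

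Dmrt1 had 313 and 245 UMIs in control and cKO spermatogonia-like cells, 174 and 184 CPM. Its level was 5.60-fold lower in control and 6.41-fold lower in cKO preleptotene-like cells, at 31.0 and 28.7 CPM, and reached the free RNA level in leptotene-zygotene-like cells. Sertoli-like cells, the other testis cell type known to use DMRT1, had 28.9 and 33.8 CPM, from 35 and 36 UMIs. The Dmrt1 values of both libraries lay within each other's intervals in these 3 gates at 3000 UMIs. The log2 ratio moved with the barcodes counted, however. In spermatogonia-like cells it was 0.09, against 0.78 at 1000 UMIs, 0.38 among cells of 3000 to 6000 UMIs and -0.04 at 5000 UMIs. In preleptotene-like cells it was -0.11, against -0.54 at 2000 UMIs and 0.69 among cells of 3000 to 6000 UMIs, from 22 and 7 UMIs.

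Sohlh1 had 165 UMIs in control and 154 in cKO spermatogonia-like cells, 91.5 and 116 CPM. The log2 ratio was 0.34 (interval 0.01 to 0.66), the highest of the 8 in this gate. The share of spermatogonia-like cells with a Sohlh1 UMI, with every cell thinned to 3000 UMIs and averaged over all draws, was 20.1% (exact binomial interval 15.5 to 25.5) in control and 26.5% (20.8 to 32.9) in cKO. Unthinned it was 36.5% and 44.3%, at median depths of 5877 and 5281 UMIs. In Leydig-like cells, where Sohlh1 should be absent, a UMI was seen in 1 of 100 control cells and 0 of 95 cKO cells (exact binomial upper bound 3.81%), at median depths of 8269 and 6705 UMIs. Among spermatogonia-like cells of 3000 to 6000 UMIs the ratio was 0.91, from 33 and 62 UMIs, and at a minimum of 1000 UMIs it was 1.04. Sohlh1 was thus above control in cKO spermatogonia-like cells by an amount that depended on which barcodes were counted. In later stages it had 0.521 and 0.443 CPM in round spermatid-like cells, and 3.4 CPM (interval 2.91 to 3.94) and 2.49 (1.98 to 3.09) in elongating spermatid-like cells. The control value is above its free RNA of 2.36 and the cKO interval includes that of 2.39. The gate starts at 500 UMIs of the elongating-spermatid list per 10000, and its level was uneven along that list. The 538 control and 270 cKO cells with 500 to 1000 stood above free RNA, at 5.62 CPM (interval 4.05 to 7.6) and 5.78 (3.77 to 8.46), as did the 1538 and 620 cells with 1000 to 1700, at 7.05 (5.59 to 8.78) and 5.33 (3.51 to 7.76). The 3730 and 3182 cells with 1700 or more, most of the gate, were below it at 1.61 and 1.26 CPM. Barcodes with 500 to 1000 were the deepest of the gate, with medians of 11057 and 14186 UMIs, and called doublets were kept. Whether they hold spermatids alone was not tested. This gate of 5806 control and 4072 cKO cells held 42.6% of all Sohlh1 UMIs in control and 31.1% in cKO.

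Its relative Sohlh2 kept another course. It had 50 and 28 UMIs in spermatogonia-like cells, 27.7 and 21.1 CPM, and 47.3 and 36.6 CPM in leptotene-zygotene-like cells, from 133 and 68 UMIs. Between those gates the preleptotene-like cells had 30 and 3 UMIs, too few in cKO to place. In early pachytene-like cells Sohlh2 was 8.32-fold and 7.53-fold lower than in leptotene-zygotene-like cells, at 5.68 and 4.86 CPM. The log2 ratio of cKO over control was below 0 in these 4 gates, between -0.95 and -0.23, with intervals that all include 0.

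Crabp1 had the largest share of its UMIs in spermatogonia-like cells of the 8 genes: 74.5% of its UMIs in all control barcodes and 74.2% in cKO lay there. It had 363 and 310 UMIs in that gate, 201 and 233 CPM, a log2 ratio of 0.21 (interval -0.01 to 0.43). The ratio was 0.67 among cells of 3000 to 6000 UMIs and 0.89 at a minimum of 1000 UMIs, both outside that interval, and 0.02 at 5000 UMIs. Control preleptotene-like cells had 29 UMIs, 23.1 CPM. The cKO preleptotene-like cells had 0, with an exact Poisson upper limit of 15.1 CPM. The limit of 3 UMIs used for calls is 12.3 CPM there. The interval of the log2 ratio, which carries the counting error of both libraries, has an upper limit of -0.51. In leptotene-zygotene-like cells cKO had 11 UMIs and control 3, and 9 of the 11 came from 1 barcode.

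At meiotic entry, Stra8 went from 422 UMIs in control spermatogonia-like cells to 662 in preleptotene-like cells, 234 to 526 CPM, and back to 9 UMIs in leptotene-zygotene-like cells. In cKO it went from 284 to 159 and to 5 UMIs, 214 to 653 to 2.69 CPM. The preleptotene-like level was 2.25-fold higher in control and 3.06-fold higher in cKO than the spermatogonia-like level. The leptotene-zygotene-like levels, 3.20 CPM in control and 2.69 in cKO, lay below the free RNA of 4.58 and 4.34. They are therefore not read as expression and no fold is given against them. Free RNA was estimated at 25.3% and 22.3% of the UMIs in these cells, so it need not account for all of that Stra8 RNA. Stra8 RNA was unevenly spread: the highest barcode held 28 UMIs in control and 23 in cKO, while after thinning 46.8% (interval 40.9 to 52.6) and 46.3% (33.3 to 60.1) of preleptotene-like cells had any. Leydig-like cells had 0 Stra8 UMIs in both libraries.

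Meioc had 327 UMIs in control and 136 in cKO spermatogonia-like cells, 181 and 102 CPM. In preleptotene-like cells it had 723 and 123 UMIs, 575 and 505 CPM, and in leptotene-zygotene-like cells 1454 and 733 UMIs, 517 and 394 CPM. The early pachytene-like values were 370 and 286 CPM, and the later spermatocyte-like values 182 and 123. Its level in control leptotene-zygotene-like cells was 1.11-fold below that in preleptotene-like cells (log2 -0.15, interval -0.28 to -0.02). Ythdc2 followed the same course at 81.0 and 63.9 CPM in spermatogonia-like, 236 and 172 in preleptotene-like, 208 and 156 in leptotene-zygotene-like and 107 and 82.9 in early pachytene-like cells. Over 9 gates in 2 libraries, Meioc and Ythdc2 were the most alike pair of the 8 (Pearson r = 0.921 of log2 values, 18 points that share libraries and free RNA).

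Across genotypes, none of the 8 genes passed a fold of 2 in spermatogonia-like cells, given 20 or more UMIs over both libraries. Under other settings Sohlh1 passed it at 1000 UMIs (1.04, from 181 and 166 UMIs) and Meioc at 5000 UMIs (-1.06, from 250 and 80). At 1000 UMIs this gate held 2798 control and 1072 cKO barcodes, against 263 and 219 at 3000 UMIs. The spermatogonial cut is 4 list UMIs per 10000, so at the median depths of 1493 and 1413 UMIs 1 list UMI can meet it. The added barcodes are thus not shown to be spermatogonia. Sohlh1 had 165 and 154 UMIs at 3000, so the added barcodes changed its ratio mainly through the total UMIs it is scaled by. The background in this gate at 3000 UMIs was 3.47% of 11155 genes lower and 1.23% higher in cKO. In preleptotene-like cells none of the 8 passed it either, against 7.04% lower and 2.54% higher of 8456 genes. Crabp1 is counted there at the limit of 3 UMIs, since cKO had 0. With barcodes of at least 2000 UMIs 3 genes passed it in this gate, each on few cKO UMIs: Kit at -1.37 (61 and 8 UMIs), Sohlh2 at -1.20 (34 and 5) and Crabp1 at -1.34 (30 and 4). At 1000 UMIs they were at -1.44, -1.27 and -1.42. Kit was also past it with free RNA subtracted (-1.02) and among cells of 3000 to 6000 UMIs (-1.03), and Sohlh2 with free RNA subtracted (-1.07) and under the stricter gate (-2.24, from 25 and 1 UMIs). In leptotene-zygotene-like cells 3 of the 8 had enough UMIs and none passed, against 3.58% and 0.701% of 10551 genes. Kdm6a passed it in all 3 gates, with log2 ratios of -1.73, -2.26 and -2.93. Free RNA held Kdm6a at 4.31 CPM in control and 6.88 in cKO. The cKO values of 6.01 CPM in spermatogonia-like and 1.08 in leptotene-zygotene-like cells lie below that and are not read as expression. Free RNA was estimated at 22.7% and 22.3% of the UMIs in these cKO cells. Whether it accounts for all of their Kdm6a UMIs was not tested. In cKO preleptotene-like cells the 16.4 CPM rest on 4 UMIs.

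**Figure D2:**
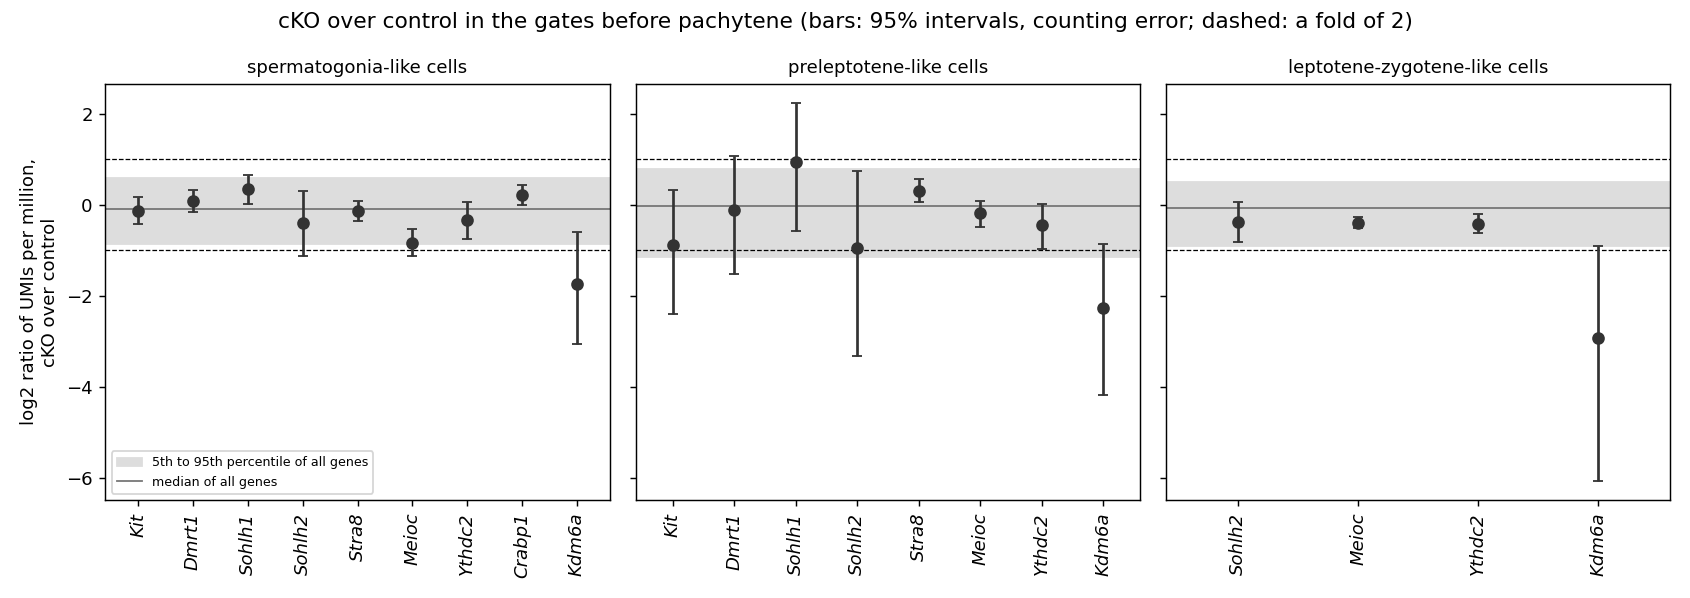
Log2 ratio of CPM, cKO over control, for each of the 8 genes and Kdm6a with at least 20 UMIs in 3 gates; bars are exact conditional 95% intervals for counting error, the grey band holds the middle 90% of all genes tested, and dashed lines mark a fold of 2. Crabp1 has 0 UMIs in cKO preleptotene-like cells and is not drawn there, and all the 8 genes that are drawn lie between the dashed lines, with Meioc at -0.83 lowest in spermatogonia-like cells.

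Meioc and Ythdc2 were below control in cKO in each of the 7 germ-cell gates, although not every one of these levels stood above free RNA. How many other genes were below control in all 7 gates was not counted. For Meioc the log2 ratio was -0.83 (interval -1.13 to -0.53) in spermatogonia-like, -0.19 (-0.48 to 0.09) in preleptotene-like and -0.39 (-0.52 to -0.26) in leptotene-zygotene-like cells. It was -0.37 (-0.44 to -0.30) in early pachytene-like, -0.56 (-0.63 to -0.50) in later spermatocyte-like, -0.62 (-0.76 to -0.49) in round and -0.58 (-0.71 to -0.46) in elongating spermatid-like cells. The all-gene median in these gates lay between -0.09 and -0.03. The spermatid values, 41.6 and 27 CPM in round and 35.3 and 23.6 in elongating cells, are near or below the free RNA of 39.4 and 38.2. Within the elongating gate the 538 control and 270 cKO cells next to its cut (500 to 1000 UMIs of the list per 10000) stood above it, at 89.9 CPM (interval 83.2 to 97.0) in control and 62.2 (55.1 to 69.9) in cKO. Their median depths were 11057 and 14186 UMIs, against 4519 and 4327 among cells with 1000 to 1700. Whether these deep barcodes hold spermatids alone was not tested. The cells with 1000 to 1700 were at 40.4 (36.8 to 44.2) and 36.1 (31.1 to 41.8), intervals that include the free RNA, and those with 1700 or more were below it at 20.9 and 13.6. Among the 1000 tested genes nearest to Meioc in UMIs, 1.3% had a lower ratio in spermatogonia-like, 27.8% in preleptotene-like, 5.2% in leptotene-zygotene-like, 6.8% in early pachytene-like and 2.2% in later spermatocyte-like cells. The intervals count molecules and do not cover differences between animals or preparations, of which these 2 libraries give no measure.

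Ythdc2 had log2 ratios of -0.34 (interval -0.75 to 0.05), -0.45 (-0.96 to 0.02), -0.42 (-0.63 to -0.21), -0.36 (-0.50 to -0.23) and -0.70 (-0.93 to -0.48) from the spermatogonia-like to the later spermatocyte-like gate. Among the 1000 tested genes nearest to it in UMIs, 24.4%, 11.4%, 7.0%, 12.5% and 1.8% had a ratio as low or lower in these gates. Free RNA held Ythdc2 at 11.1 and 11.2 CPM. The cKO later spermatocyte-like level of 10.8 CPM and the spermatid levels (7.68 and 4.94 in round, 7.46 and 5.25 in elongating cells) lay below that, so as whole gates only the 4 up to early pachytene stand above free RNA in both libraries. Of the elongating spermatid-like cells, the few deep ones next to the cut (500 to 1000) also did, at 20.9 CPM (interval 17.7 to 24.4) and 16.9 (13.3 to 21.1). Those with 1000 to 1700 were at 10.0 and 8.69, and those with 1700 or more at 3.46 and 2.31. RNA of later cells was higher in the control gates: the median summed level of the elongating-spermatid list per 10000 UMIs was 118 in control and 73.9 in cKO spermatogonia-like cells, 164 and 112 in preleptotene-like cells, where the Meioc ratio was nearest to 0, and 120 and 78.1 in leptotene-zygotene-like cells. With free RNA subtracted, the Meioc ratio was -0.97 in spermatogonia-like, -0.28 in preleptotene-like and -0.45 in leptotene-zygotene-like cells. In Sertoli-like cells Meioc was also lower in cKO, at 95.9 and 39.4 CPM (log2 -1.28, interval -1.83 to -0.76), a gate where 3.53% of genes were past a fold of 2 lower. Sertoli cells are not a known site of Meioc expression, and the median summed level of the elongating-spermatid list in that gate was 209 per 10000 UMIs in control and 93.7 in cKO. In Leydig-like cells that list was also higher in control, 77.1 against 58.7, while Meioc had 18.3 and 27.1 CPM (log2 0.57, interval -0.44 to 1.59). The part of spermatid RNA in the Meioc difference was not tested.

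The Meioc difference in spermatogonia-like cells was read in 3 bins of the cells' summed early meiotic markers, low, middle and high, cut at the same levels in both libraries. Meioc had 71.7 and 27.1 CPM in the low bin, from 37 and 13 UMIs. The middle bin had 96.4 and 61.6, from 59 and 31 UMIs, and the high bin 342 and 264, from 231 and 92 UMIs. The cKO value was the lower one in each bin, and the Poisson intervals of the libraries overlapped in the middle and high bins. Overlap of separate intervals does not show equal levels, and no interval of a ratio is given for these bins. In the low bin the separate intervals did not overlap, at 50.5 to 98.9 in control and 14.5 to 46.4 in cKO. The cKO level there lay below its free RNA of 38.2 CPM and is not read as expression. Free RNA was estimated at 22.7% of the UMIs of the whole cKO gate, so that level need not be free RNA alone. The high bin held 100 of 263 control cells and 61 of 219 cKO cells. In the same bins Stra8 had 236 and 230, 248 and 258, and 219 and 126 CPM, so its widest gap lay in the high bin. Kit had 112 and 79.3, 167 and 159, and 126 and 135.

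Among cells of at least 5000 UMIs the Meioc ratio in spermatogonia-like cells was -1.06, past a fold of 2, and at a minimum of 1000 UMIs it was -0.20. The ratios of Kit and Stra8 in this gate, both -0.13 at 3000 UMIs, were 0.68 and 0.83 at 1000 UMIs, and those of Ythdc2 and Sohlh2 turned from -0.34 to 0.25 and from -0.40 to 0.26. At that lower minimum the gate held 2798 control and 1072 cKO barcodes with a median of 1493 and 1413 UMIs. Of these barcodes, 90.6% in control and 79.6% in cKO had under 3000 UMIs. At such depths few list UMIs meet the spermatogonial cut, so the ratios at 1000 UMIs need not be those of spermatogonia.

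In preleptotene-like cells Stra8 was higher in cKO at 3000 UMIs, with a log2 ratio of 0.31 (interval 0.05 to 0.56). At a minimum of 2000 UMIs the ratio was -0.12, from 738 and 230 UMIs, and at 1000 UMIs it was -0.18. The direction thus turned with the depth of the barcodes counted. The numbers of cells moved as well: preleptotene-like cells were 2.59% (exact binomial interval 2.30 to 2.90) of control and 0.681% (0.517 to 0.879) of cKO barcodes at 3000 UMIs. They were 2.40% and 1.54% at 2000 UMIs, from 385 and 167 of 16047 and 10836 barcodes. At 1000 UMIs they were 0.579% and 0.653%, from 398 and 188 of 68725 and 28793. The shares thus also moved with the totals they are taken of, while the count stayed lower in cKO at each minimum. The leptotene-zygotene-like gate held 456 and 389 barcodes at 1000 UMIs. Of the preleptotene-like barcodes found at 1000 UMIs, 26.9% in control and 69.1% in cKO had under 3000. Fewer cells of this stage and less RNA per cell in the cKO library cannot be told apart from these data.

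**Figure D3:**
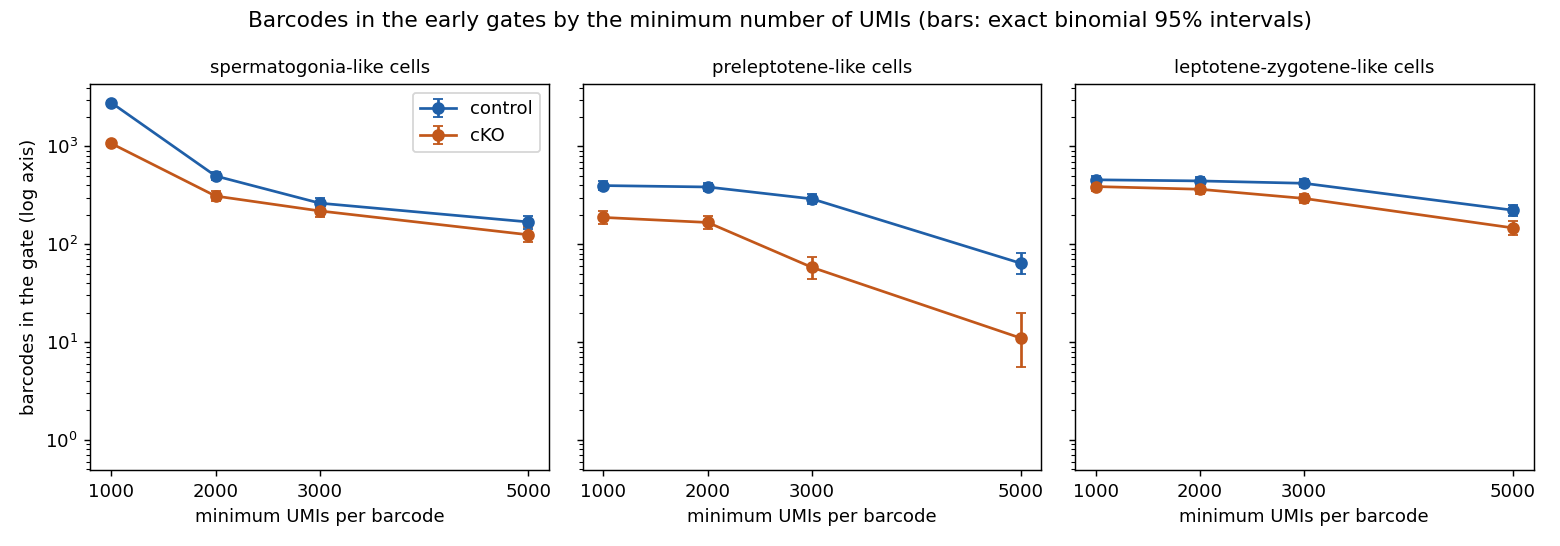
Barcodes in 3 early germ-cell gates (log axis) against the minimum number of UMIs per barcode, with control in blue, cKO in orange and exact binomial 95% intervals. The gap between libraries in the preleptotene-like gate widens from 398 against 188 barcodes at 1000 UMIs to 291 against 58 at 3000.

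In early pachytene-like cells Stra8 was 1 of the 2.0% of 13088 genes past a fold of 2 lower in cKO, at 3.38 and 0.347 CPM. Both values lay below the free RNA level of 4.58 and 4.34, and 12 of the 38 control UMIs came from 1 barcode. The call was lost at a minimum of 2000 UMIs, with a log2 ratio of -0.91. In round spermatid-like cells Stra8 was lower past a fold of 2 (1.70 and 0.647 CPM, in a gate with 2.44% of genes lower), and Crabp1 was higher past it in round (0.313 and 0.716) and elongating (0.625 and 1.38) spermatid-like cells, where 0.565% and 0.41% of genes were higher. Every one of these gate levels was below the free RNA of its own library. The 46 Crabp1 UMIs of the cKO elongating gate lay in 22 of 4072 cells, with up to 8 in 1 cell. Among its 270 cells with 500 to 1000 UMIs of the elongating-spermatid list per 10000, Crabp1 stood above free RNA in cKO, at 5.55 CPM (interval 3.59 to 8.20, 25 UMIs) against 1.5, and control was at 1.74 (0.926 to 2.97, 13 UMIs) against 2.08. In the 3182 cKO cells with 1700 or more it was at 0.337 CPM, from 8 UMIs. Stra8 was at 9.50 (7.42 to 12.0) and 6.67 (4.50 to 9.51) in the bin from 500 to 1000, above free RNA in both libraries, and at 1.08 and 1.09 with 1700 or more. The bin from 500 to 1000 held the deepest barcodes of the gate, and whether they hold spermatids alone was not tested.

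The wider pathway was read from 58 further genes of the list, none of them a gate marker. In spermatogonia-like cells 43 had 20 or more UMIs, and 1 was lower and 1 higher past a fold of 2, against 3.47% lower and 1.23% higher of all genes. The list's median log2 ratio was 0.02, against -0.09 over all genes. The lower one was Gm4969, the gene of the STRA8 partner MEIOSIN, with 27 and 4 UMIs (log2 -2.32, interval -4.29 to -0.80). Of its control UMIs, 23 lay in the high early meiotic bin, which held more control than cKO cells. Within that bin it had 34.1 CPM (interval 21.6 to 51.1, 23 UMIs) in control and 8.62 (1.78 to 25.2, 3 UMIs) in cKO. These separate intervals overlap, which does not show equal levels, and no interval of their ratio is given. It had under 20 UMIs, and so no call, at 5000 UMIs (13 and 1 UMIs, log2 -3.12), under the stricter gate (18 and 0 UMIs) and among cells of 3000 to 6000 UMIs (15 and 3 UMIs, log2 -2.32). The higher one was Cyp26b1, which encodes an enzyme that breaks down retinoic acid, with 11 and 34 UMIs (log2 2.07, interval 1.05 to 3.20). Of these 34 UMIs, 17 lay in the 2 cKO cells with 2 or more peritubular or endothelial UMIs, and without them the ratio was 1.08, from 11 and 17 UMIs. Over the whole cKO gate Acta2 had 64 UMIs, Myh11 32 and Tagln 25, against 3, 0 and 4 in control. All 4 retinoic acid receptor genes with enough UMIs stayed within a fold of 2, the widest being Rxrb at 30.5 and 52.6 CPM (log2 0.79, interval 0.26 to 1.32). Of the 8 genes listed as partners at meiotic entry, all had enough UMIs and their median was -0.47, against 0.01 in preleptotene-like cells (7 genes) and 0.08 in leptotene-zygotene-like cells (5 genes). In spermatogonia-like cells only Rbm46 at 0.19 and Zglp1 at 0.07 were above 0. Besides Gm4969, those below it included E2f6 at -0.63 (interval -1.27 to -0.01), Pcgf6 at -0.49 (-1.07 to 0.07) and Tbpl1 at -0.21 (-0.45 to 0.02). Max, a MYC partner of the complex that represses germ-cell genes, was at -0.95 (interval -1.75 to -0.20). Mga of the same complex was at -0.45 (interval -0.73 to -0.18). Both stayed within a fold of 2, and in leptotene-zygotene-like cells they were at 0.41 and -0.21.

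In preleptotene-like cells Gm4969 had 162 and 20 UMIs, 129 and 82.1 CPM (log2 -0.65, interval -1.40 to 0.02). That was 8.60-fold higher than in spermatogonia-like cells in control and 27.3-fold higher in cKO, where the starting value rests on 4 UMIs. In this gate 36 list genes had enough UMIs, 0 were lower and 3 were higher past a fold of 2, against 7.04% and 2.54% of all genes. The 3 were Rxrb with 27 and 11 UMIs, Rdh10 with 16 and 7, and Foxo1 with 16 and 7, and all of their intervals include 0. In simulated counts 9.21% of unchanged genes passed a fold of 2 in this gate. Of the 14 meiotic target genes with enough UMIs, none passed a fold of 2 and their median log2 ratio was 0.00. Syce2, of the synaptonemal complex, had 606 and 620 CPM. This gate and the leptotene-zygotene-like gate take only cells with at least 50 UMIs of the early meiotic list per 10000. Cells short of early meiotic RNA are left out, so near-equal target levels within these gates do not test whether cells entered meiosis alike. In leptotene-zygotene-like cells 35 list genes had enough UMIs, and 2 were lower and 0 higher past a fold of 2, against 3.58% and 0.701% of all genes. The 14 meiotic targets had a median of -0.13. Tex11, with 83 and 22 UMIs (log2 -1.32, interval -2.07 to -0.63), and Ccnb3, with 106 and 20 UMIs (log2 -1.81, interval -2.58 to -1.11), were lower. Both are meiotic genes of the X chromosome. Neither passed a fold of 2 at 1000 UMIs, with ratios of -0.71 and -0.88, and at 2000 UMIs Tex11 was at -0.78 and Ccnb3 at -1.06. At 5000 UMIs Ccnb3 had only 11 and 7 UMIs (log2 0.0) and Tex11 was at -1.39. Syce3 of the synaptonemal complex had 445 and 521 CPM there.

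By the correlation of log2(CPM + 10) over the same 18 points, the genes most like each member, outside the 8 and the markers, came from 18331 genes with 50 or more UMIs. They were Nexmif, Hlf and Fkbp10 for Kit (r of 0.979 to 0.982), Epb41l4b, Nme4 and E2f3 for Dmrt1 (0.968 to 0.971), and Ccnd1, Galnt12 and Fthl17e for Sohlh1 (0.989 to 0.992). Sohlh2 was most like Pramel1 (0.966), Map3k15 (0.943) and Wasf3 (0.938). The nearest to Stra8 were Hist3h2ba (0.996), 4933427D06Rik (0.991) and Elavl2 (0.987). Atr, Ankrd31 and Lin9 (0.979 to 0.983) were nearest to Meioc, C2cd5, Topbp1 and Qser1 (0.978 to 0.984) to Ythdc2, and Nhsl2, Glis1 and Gm49700 (0.989 to 0.992) to Crabp1. These values describe likeness over gates of 2 libraries and carry no test.

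Chromatin at the start sites was read in sorted cKIT+ cells, whose sort marker is the product of 1 of the 8 genes. The authors' ATAC peaks lay within 2 kb of the start site in all 5 libraries for Kit, Sohlh2, Stra8 and Meioc, 4 of the 6 genes with a start site, against 36.5% of 17492 protein-coding genes. Sohlh1 had one in 4 libraries, not in cKO 1, and Crabp1 in 3, control 2, cKO 2 and cKO 3. List lengths were 19118 and 33250 peaks in control and 14635, 18883 and 40497 in cKO. The shortest list, cKO 1, lacked both peaks, while cKO 2 held both with fewer peaks than control 1, which lacked that of Crabp1. No member with a peak in both control libraries lacked one in all cKO libraries.

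**Figure D4:**
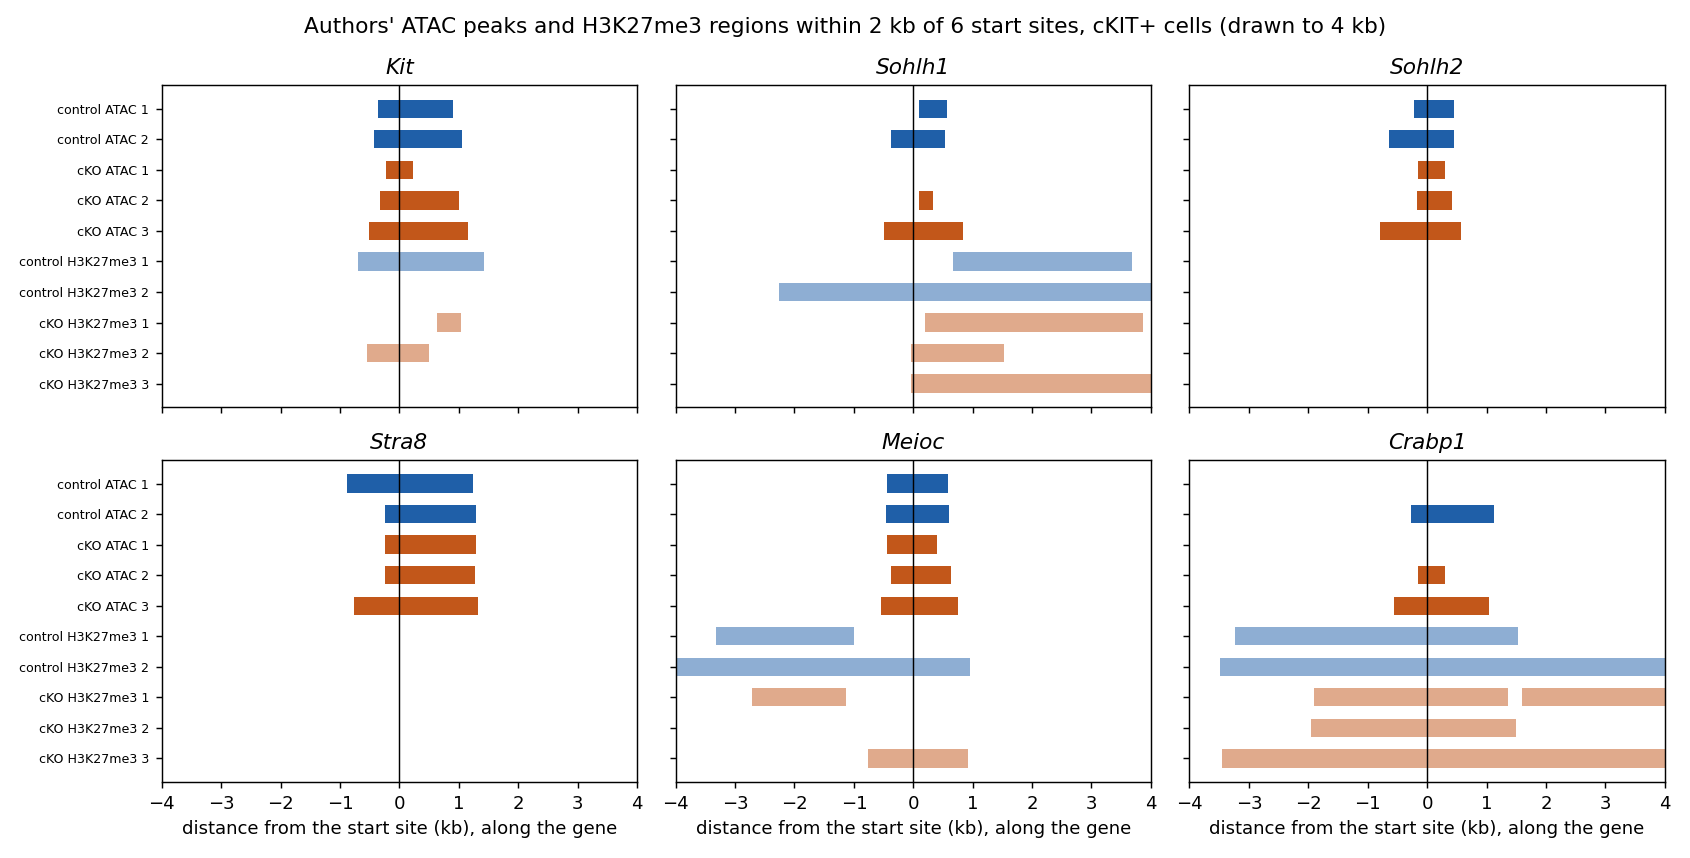
Authors' ATAC peaks (full colour) and H3K27me3 regions (pale) that come within 2 kb of 6 start sites in cKIT+ cells, by library (control blue, cKO orange), drawn by distance along the gene up to 4 kb from the start site at 0. Stra8 and Sohlh2 have an ATAC peak over the start site in all 5 libraries and no H3K27me3 region, and Crabp1 has H3K27me3 over the start site in all 5.

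At Stra8 the peak ran from -881 to 1233 in control 1 and from -247 to 1294 in control 2, and from -247 to 1294, -242 to 1270 and -764 to 1315 in cKO 1, 2 and 3. It covered both AGGTCA copies of the promoter shown above in every library. The authors' fold enrichment was 3.13 and 3.82 in control and 3.19, 3.81 and 3.45 in cKO, weaker than most peaks of each list. At Meioc it was 4.6 and 5.74 in control and 6.7, 6.6 and 4.91 in cKO, and 61.5% to 91.4% of the peaks in each list were weaker. At Kit the 5 values ran from 4.37 to 4.88, and at Sohlh2 from 3.70 to 5.25. The control and cKO values overlapped at Kit, Stra8, Sohlh2 and Meioc. At Sohlh1 the peak lay from 90 to 565 in control 1 and from 88 to 336 in cKO 2, outside the 3 CACGTG copies, and from -382 to 527 in control 2 and -493 to 835 in cKO 3, across them.

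H3K27me3, the mark that UTX removes, was within 2 kb of the Sohlh1 and Crabp1 start sites in all 5 libraries, 2 of the 6 genes against 7.83% of 17492. It was absent from the lists within that window in all 5 libraries at Stra8 and Sohlh2, as for 80.2% of genes. At Crabp1 the region covered the start site in every library, with lengths of 4762 and 13782 bases in control and 3276, 3455 and 18120 in cKO. Its summed signal was stronger than 88.1% to 97.0% of regions in each list. At Sohlh1 the region began at 665 in control 1 and 195 in cKO 1, downstream of the start site, and covered the start site in control 2, cKO 2 and cKO 3. Meioc had a region in 4 libraries, not in cKO 2, which lay wholly upstream in control 1 and cKO 1. Kit had one in control 1, cKO 1 and cKO 2. None of the 6 had both marks in all libraries of each, as 0.755% of genes did. The IgG library had none at the 6 genes. Covered length differed between libraries, from 21.3 Mb in cKO 1 to 81.3 Mb in control 2, and no member had the mark in all libraries of 1 genotype and none of the other. Within 500 bases only Crabp1 kept H3K27me3 in all 5 libraries, and among the stronger 50% of each list an ATAC peak stayed in all 5 libraries at Kit and Meioc alone.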

How the data were processed

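The single-cell matrices were deposited by the authors as raw UMI counts for every barcode, written by Cell Ranger 4 per the file headers. Build mm10, cutadapt, Bowtie2, MACS2, SAMtools, deepTools, SEACR and Seurat 4.1.0 are named in the submitters' processing notes. The authors' ATAC lists give a fold enrichment (ratio) and the −log10 of p and q per peak, and their CUT&Tag lists give a summed signal per region, all called per library. No source used here gives their filters or signal scaling, and 4 of the 5 H3K27me3 files are named as downsampled.

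Barcodes of at least 3000 UMIs were gated by marker lists, with levels per 10000 UMIs. Gate cuts were chosen after marker values were seen. Summed UMIs per gate and library were scaled to 1000000 UMIs (CPM). Intervals are exact (Poisson, binomial, or conditional binomial for ratios) at 95% and cover counting error only; molecules of 1 cell are not independent. A gene was called past a fold of 2 with 20 or more UMIs. Shares were thinned to 3000 UMIs. The floor for 0 counts is 3 UMIs. Free RNA came from barcodes under 100 UMIs. Peaks were counted within 2 kb of RefSeq start sites (GRCm38.p6) at 1 bp overlap. The ratios with their intervals and the peak overlaps were tested on simulated data; gating and thinning were not.

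Named genes were the 8 members, Kdm6a, the 3 genes most like each member, and pathway genes past the fold; other pathway genes and sublists were named after their values were seen. The members and lists were chosen with earlier results of these data known. Bulk RNA-seq was not used here, because its transcript IDs are not paired with genes in the tables used; its planned edgeR and DESeq2 fits were not run. Python 3.11.15, scipy 1.17.1, scanpy 1.11.5 and matplotlib 3.10.9 were used.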

Additional observations from a re-analysis of the deposited data

How the results depend on the processing

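No paired analysis was possible because each genotype has 1 single-cell library and the peak counts come from no test. The planned bulk fits and their alternatives were not run. Of 297 alternative values of the log2 ratios of the 8 genes, 280 stayed within the interval of the reported value and 17 moved outside it. Another 17 alternatives, not among the 297, had under 20 UMIs and give no value. The only called ratio among those reported, Stra8 in early pachytene-like cells, kept its direction. It lost its call at 2000 and 1000 UMIs (-0.91 and -0.78). Ratios that were not called could change sign, as given below. Settings at 1000 UMIs, for cells of 3000 to 6000 UMIs, without cells with 2 or more peritubular or endothelial UMIs and without single ATAC or H3K27me3 libraries were chosen after seeing the data. Meioc was lower in cKO under every one of 10 alternatives in each of 5 gates up to later spermatocytes, and Ythdc2 under every alternative that gave a value except 1000 UMIs in spermatogonia-like cells (0.25). Directions were less stable for ratios near 0 in that gate: Kit kept its direction under 7 of 10 alternatives, Dmrt1 under 8 and Stra8 under 5. At 1000 UMIs few list UMIs meet the cut of the spermatogonia-like gate. The log2 ratio there was 0.68 for Kit, 0.78 for Dmrt1, 1.04 for Sohlh1, 0.83 for Stra8, -0.20 for Meioc and 0.89 for Crabp1. Among cells of 3000 to 6000 UMIs it was 0.16 for Kit, 0.38 for Dmrt1, 0.91 for Sohlh1, 0.10 for Stra8 and 0.67 for Crabp1, and at 2000 UMIs 0.18 for Stra8. Stra8 in preleptotene-like cells was -0.12 at 2000 and -0.18 at 1000 UMIs, and in early pachytene-like cells -0.91 and -0.78. The causes were not tested.

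Pathway genes past a fold of 2 were few, so small changes move their counts. In spermatogonia-like cells the lower ones were 0 at 5000 UMIs, under the stricter gate and among cells of 3000 to 6000 UMIs, 2 without doublets and 4 with free RNA subtracted. The higher ones were 3 at 2000, 2 at 5000 and 5 at 1000 UMIs, and 5 with free RNA subtracted. In preleptotene-like cells the lower ones were 4 at 5000 UMIs and 1 at 1000 UMIs and among cells of 3000 to 6000 UMIs. The higher ones were 1 at 5000 and 1000 UMIs, among cells of 3000 to 6000 UMIs and with free RNA subtracted. In leptotene-zygotene-like cells the lower ones were 1 at 5000 UMIs, 0 at 1000 UMIs and 5 among cells of 3000 to 6000 UMIs, and the higher ones were 1 among the latter and with free RNA subtracted.

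Without thinning, shares of spermatogonia-like cells with a UMI in control and cKO were 49.4% and 47.0% for Kit, 57.0% and 57.5% for Dmrt1, 36.5% and 44.3% for Sohlh1 and 54.0% and 58.4% for Crabp1. In leptotene-zygotene-like cells they were 24.5% and 19.4% for Sohlh2, 91.0% and 82.3% for Meioc and 71.2% and 57.5% for Ythdc2. At 5000 UMIs the thinned share was 44.4% for Crabp1 in control spermatogonia-like cells, and 56.2% and 76.8% for Stra8 in control and cKO preleptotene-like cells, the latter of 11 cells. Among the stronger 50% of each list, 2 of 6 genes had an ATAC peak in every library, 2 had none in any and 1 had H3K27me3 in every library. Within 500 bp 1 had H3K27me3 in every library. Leaving out a library in turn gave 4 to 5 genes with ATAC and 2 to 3 with H3K27me3 in every remaining library.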
